A study of Mus musculus with 4 samples.

Results

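The nuclear genes for the subunits of respiratory complexes II to V were compared between C2C12 mouse myoblasts with and without Sfmbt1 knockdown. They were taken by gene symbol: Sdha to Sdhd for complex II, names that start with Uqcr for complex III, with Cox4 to Cox8 for complex IV and with Atp5 for complex V. Only probe sets that the array annotation assigns to exactly 1 gene were used, and the one with the highest mean over the 4 arrays stood for its gene. Values, and whether the groups overlap, are those of that probe set unless another is named. This gave 46 genes of the 18193 on the array: 4 of complex II, 8 of complex III, 17 of complex IV and 17 of complex V. Of these, 42 passed a filter on dim probe sets and were tested, and the 4 that did not are Cox6b2, Cox7a1, Cox7b2 and Cox8b. The filter kept the upper 60% of probe sets by mean level, and with it 12866 genes.

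C2C12 is an established mouse line of muscle precursor cells that can be made to fuse into myotubes. Each culture carried an integrated pLKO.1 lentiviral vector and was kept with puromycin in growth medium rich in serum, per the labels. In the 2 control cultures the vector expressed a control hairpin RNA, described once as scrambled and once as aimed at luciferase. In the 2 knockdown cultures it expressed a hairpin against Sfmbt1, a chromatin protein with MBT repeats. There was 1 Affymetrix array per culture. The series text calls the cultures independently grown, and p-values measure the spread between these cultures only. No label gives the number of transductions or hairpin sequences behind a group. In bulk RNA, fewer cells of a type and less RNA per cell cannot be told apart.

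Oxidative phosphorylation takes place in the inner mitochondrial membrane. Complex II (succinate dehydrogenase) passes electrons from succinate to ubiquinone, complex III (cytochrome bc1) hands them on to cytochrome c, and complex IV (cytochrome c oxidase) reduces oxygen with them. Complexes III and IV pump protons, and complex V (ATP synthase) uses the gradient to make ATP. Complex II is encoded wholly in the nucleus, while the others also hold subunits from mitochondrial DNA, which are not among these genes. Several complex IV subunits have a common isoform and one typical of heart and skeletal muscle, lung or testis, and mitochondrial content rises when myoblasts differentiate.

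Sfmbt1 was checked first. The probe set used for the gene, 1429749_at, was at 256.3 and 361.6 against 166.2 and 252.3, 67.7% of the control (adjusted p = 0.333 when every probe set was tested). Probe sets 1455412_at and 1422893_at were at 69.2% and 43.7%. In probe set 1422894_at, at 17.4%, the signal was 241.7 and 277.9 in control cells and 74.6 and 16 after knockdown, the last of them below the background limit of its array. The knockdown lay below the control in all 5 Sfmbt1 probe sets, and 1 of the 4 tested, 1422894_at, was called. An array's background limit was the signal that 95% of its bacterial control probe sets did not exceed, between 42.9 and 69.3 on the 4 arrays. Markers of differentiated muscle were higher in the knockdown in 11 of 12 tested genes, and their summed signal was 2552 and 2418 in the control against 10949 and 11404. The exception among them was the muscle creatine kinase gene Ckm (275.4 and 161.8 against 225.6 and 346.2), and the myoglobin gene Mb was too dim to be tested. None of 5 myoblast markers was called (2 at an unadjusted p under 0.05, both lower), with sums of 11161 and 12294 against 10783 and 11547. The knockdown lay below the control without overlap in 4 of the 5, 80% against 21.5% of all tested genes. It lay above in Des, the brightest of them and so the largest part of the sums. Of 22 markers of fibroblasts, adipocytes, endothelium, leukocytes and epithelium, 10 could be tested, 0 were called and 1 had an unadjusted p under 0.05. Their summed signal was 2270 and 1984 in control cells and 2171 and 2444 after knockdown.

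Of the 42 tested genes of complexes II to V 1 was higher when Sfmbt1 was knocked down, Atp5k, which encodes the small ATP synthase subunit e, and 0 were lower. Calls come from limma fitted across all 12866 genes, with a Benjamini-Hochberg adjusted p under 0.05, and over all of these 1.44% were called higher and 1.61% lower. Without adjustment 4 of the 42 had a p under 0.05, all of them higher (Atp5k, Sdhc, Cox8a and Atp5g2). In both directions together this is 9.52% against 15.02% of all tested genes. Of all 12866 tested genes, 1015 were higher and 918 lower at this unadjusted limit. The median log2 difference of the 42 genes was 0.14, against 0.015 over all tested genes, or 1.104-fold against 1.010-fold. A positive difference was found in 32 of the 42, which is 76.2% against 52.2% of all tested genes. Among the 1287 tested genes of highest mean signal, which hold 36 of the 42, the share was 62.0%.

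The 95% interval of a gene bounds its own difference only. It rests mostly on the spread estimated across all genes (2 residual and 13.8 prior degrees of freedom). Among the 38 uncalled genes with a mean control signal over 1000, the standard error was 0.11 to 0.22 log2 units. Their 95% intervals together ran from -0.53 to 0.67, so changes beyond 0.694-fold or 1.59-fold lay outside every one of them. By complex, the median difference was 0.06 for complex II, 0.09 for complex III, 0.12 for complex IV and 0.15 for complex V. The number of genes with a positive difference was 2 of 4, 5 of 8, 10 of 13 and 15 of 17. Differences between the complexes were not tested.

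**Figure D1:**
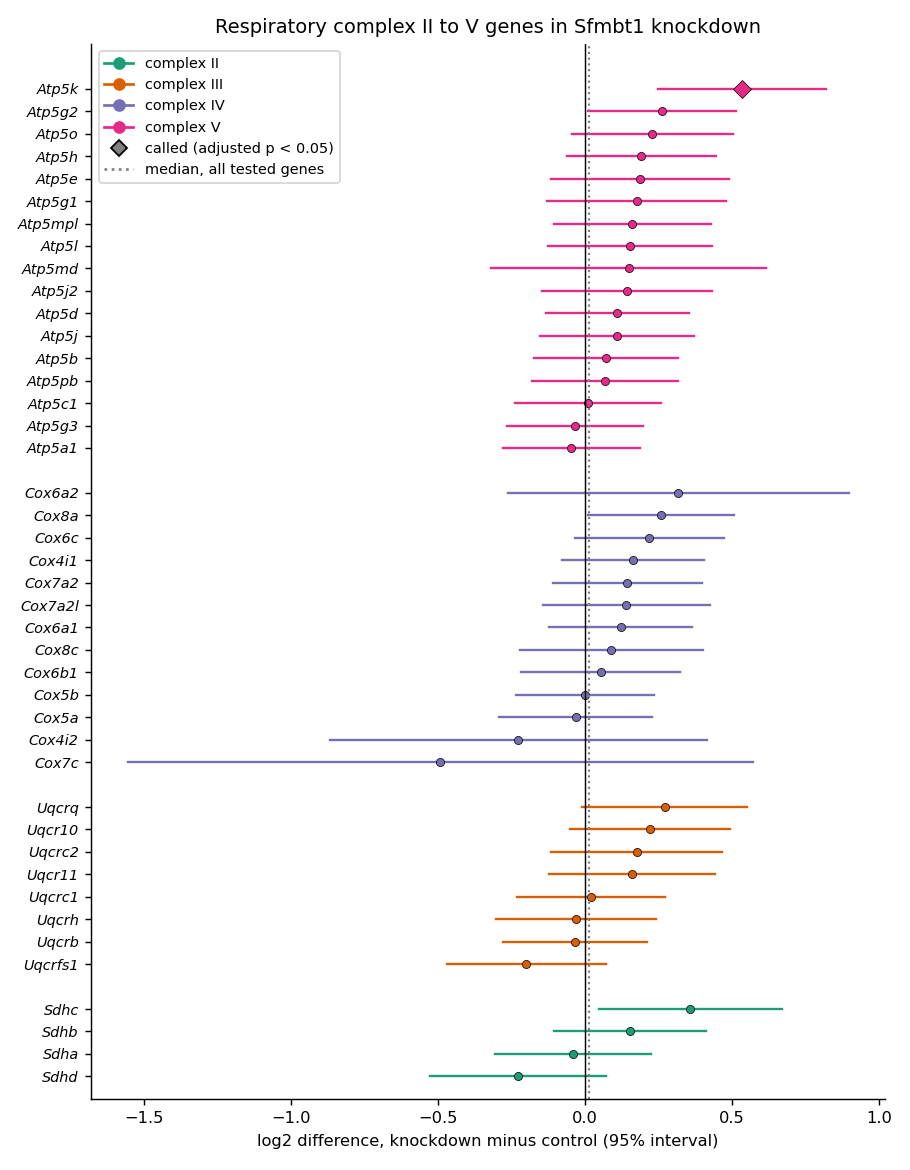
Log2 difference (knockdown minus control, x axis) of the 42 tested genes, grouped by complex, with 95% intervals from limma. Atp5k, the diamond, is the single called gene at 0.53, and the dotted line is the median of all tested genes at 0.015.

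The spread between arrays of a group was of the size of the shift itself. The median log2 level of these genes on each array, not relative to each gene's mean, had an SD of 0.10 for control and 0.24 for knockdown arrays. Knockdown replicate 2 held the highest signal of the 4 arrays in 32 of 42 genes, against 39.4% of all tested genes, and control replicate 2 in 8. Relative to each gene's mean over the arrays, the median was -0.13 on control replicate 1, 0.01 on control replicate 2, -0.06 on knockdown replicate 1 and 0.18 on knockdown replicate 2. Over all tested genes the same medians were -0.05, 0.05, -0.05 and 0.08. The knockdown array of replicate 2 thus lay above both controls, while that of replicate 1 lay between them.

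Single pairs of arrays show the same order. Knockdown replicate 2 exceeded knockdown replicate 1 in 41 of 42 genes (median 0.25), and control replicate 2 exceeded control replicate 1 in 39 (median 0.11). Knockdown replicate 1 exceeded control replicate 2 in 12 of 42 (median -0.06) and control replicate 1 in 24 (median 0.05). Without knockdown replicate 2 the median difference of the 42 genes was 0.002, with 22 of them positive, and without knockdown replicate 1 it was 0.25 with 37 positive. The median over all tested genes was -0.04 and 0.08 in these 2 fits. The groups of arrays did not overlap in 12 genes. In 10 of them the knockdown was above, 23.8% against 23.0% of all tested genes, and in 2 it was below, 4.76% against 21.5%.

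The shift also moved with the scaling of the arrays. Median centring gave the 42 genes a median difference of 0.19, quantile normalization 0.09 and cyclic loess 0.09, beside 0.06, 0.03 and 0.03 over all tested genes. The number of positive differences was 38, 27 and 27. Among the 1287 genes of highest mean signal, which hold 36 of the 42, the median difference was 0.06. Their medians by array were -0.08 and 0.03 for control and -0.04 and 0.10 for knockdown cells. The part of array scaling in the shift was not tested. Median centring also changed the balance of calls over all genes, from 47.2% higher to 63.2% higher.

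**Figure D2:**
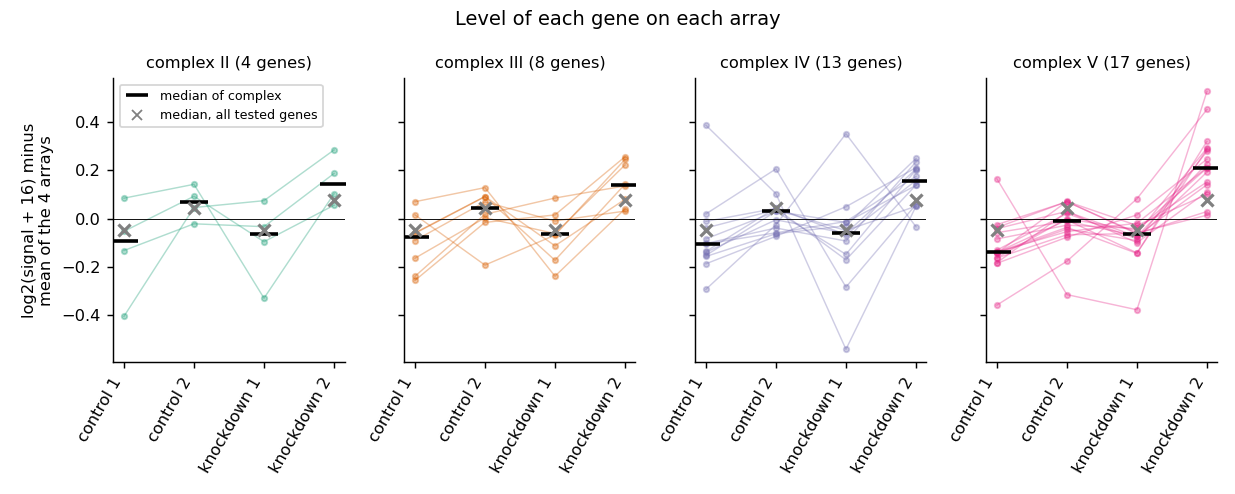
Log2(signal + 16) of each tested gene on each array, minus its mean over the 4 arrays (y axis), by complex, with thin lines joining the arrays of 1 gene. Bars are the complex medians and crosses the medians over all tested genes; the bars of knockdown replicate 2 are the highest in every complex.

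Complex II is made of 2 catalytic and 2 membrane subunits, and none of its 4 genes was called (1 at an unadjusted p under 0.05). Sdha encodes the flavoprotein that oxidises succinate. Its signal was 2852 and 3155 in control cells and 2767 and 3075 after knockdown (log2 difference -0.04, SE 0.13, adjusted p = 0.928). For Sdhb, the iron-sulphur subunit, the signals were 4385 and 4737 against 4697 and 5475 (log2 difference 0.15, SE 0.12, adjusted p = 0.621). The groups overlapped in the probe sets used for both. A second Sdha probe set, 1426689_s_at, was at 2392 and 2660 against 2266 and 2382, with the knockdown below the control (log2 difference -0.12, SE 0.12).

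The membrane anchor genes Sdhc and Sdhd had differences of opposite sign. Sdhc was at 2748 and 3762 in control cells and at 3838 and 4442 after knockdown (log2 difference 0.36, SE 0.15, adjusted p = 0.252). Its groups did not overlap, but control replicate 1 stood apart from the other arrays. Without that array the difference was 0.13. Without knockdown replicate 1 Sdhc passed (log2 difference 0.46, adjusted p = 0.0484), while its second probe set, 1435986_x_at, gave 0.08 (SE 0.14). Sdhd was at 3454 and 3595 against 2587 and 3498 (log2 difference -0.23, SE 0.14, adjusted p = 0.493), the most negative difference among genes with a mean control signal over 1000. There knockdown replicate 1 was low and the groups overlapped.

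In complex III 0 of 8 genes were called, and 0 had an unadjusted p under 0.05. The core proteins, which face the matrix, are encoded by Uqcrc1 and Uqcrc2. Uqcrc1 was at 4111 and 4596 in control cells and at 4350 and 4475 after knockdown (log2 difference 0.02, SE 0.12), and Uqcrc2 at 3042 and 2632 against 2870 and 3570 (log2 difference 0.18, SE 0.14). Uqcrfs1 encodes the Rieske iron-sulphur protein, which takes electrons from ubiquinol. It was at 3881 and 4042 against 3131 and 3801, with both knockdown arrays below the control (log2 difference -0.20, SE 0.13, adjusted p = 0.509).

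The remaining complex III genes taken by symbol encode small supernumerary subunits. Uqcrq was at 2962 and 3503 in control cells and at 3579 and 4233 after knockdown (log2 difference 0.27, SE 0.13, adjusted p = 0.352). Its 3 other tested probe sets gave -0.36, 0.04 and 1.06, so its value depended on the probe set. Uqcr10 was at 2612 and 3125 against 3274 and 3391 (log2 difference 0.22, SE 0.13, adjusted p = 0.458), while its dimmer probe sets gave -0.13 and -0.03. In the probe sets used for these 2 genes both knockdown arrays lay above the control. They also lay above it in 1437134_at of Uqcrq (1.06). They lay below it in 1452613_at of Uqcrq (-0.36) and in 1434340_at of Uqcr10 (-0.13). Over the mean of its probe sets Uqcr10 differed by 0.02 and Uqcrq by 0.25. Uqcr11 differed by 0.16, the hinge protein gene Uqcrh by -0.03 and Uqcrb, for a ubiquinone-binding subunit, by -0.03, all with overlapping groups. In a second Uqcrh probe set, 1453229_s_at, the knockdown lay above the control (log2 difference 0.19, SE 0.13).

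Of the 13 tested genes of complex IV 0 were called, and 1 (Cox8a) had an unadjusted p under 0.05. Cox8a encodes the common isoform of the smallest nuclear subunit. Its signal was 5649 and 6115 in control cells and 6659 and 7451 after knockdown (log2 difference 0.26, SE 0.12, adjusted p = 0.305), without overlap. A second probe set of similar level, 1416112_at, gave 0.25, and a dim one, 1436409_at, gave -0.12. Cox8a passed with median centring (log2 difference 0.31, adjusted p = 0.0435), while over the mean of its probe sets the difference was 0.13 (adjusted p = 0.713). Cox6c was at 13963 and 14907 against 15252 and 18509 (log2 difference 0.22, SE 0.12, adjusted p = 0.418), and Cox4i1, the common isoform of subunit IV, at 9750 and 10066 against 10397 and 11840 (log2 difference 0.16, SE 0.11, adjusted p = 0.557). Neither overlapped.

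Among the other common complex IV genes, Cox6a1 was at 14844 and 16850 in control cells and at 16324 and 18152 after knockdown (log2 difference 0.12, SE 0.11), and Cox7a2 at 13816 and 15168 against 14590 and 17551 (log2 difference 0.14, SE 0.12). Cox6b1 was at 9937 and 10752 against 9504 and 12120 (log2 difference 0.05, SE 0.13). Cox5a and Cox5b, whose products sit on the matrix side, differed by -0.03 and 0.002. Cox7a2l, whose product takes part in joining complexes III and IV into supercomplexes, differed by 0.14. In the probe sets used for these 6 genes the groups overlapped. The knockdown lay above the control in the other Cox6a1 probe set, 1417418_s_at (log2 difference 0.29, SE 0.12, adjusted p = 0.292), and in both other Cox7a2l probe sets (0.20 and 0.22). Cox7c was represented by a dim probe set, 1459885_s_at, at 82.6 and 65 against 35.8 and 62.1, with 1 knockdown array below background (no overlap; log2 difference -0.49, SE 0.50, adjusted p = 0.724).

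None of the muscle isoform genes of complex IV was called, while 11 of the 13 differentiated-muscle markers on the array rose; only Cox6a2 could be tested. Cox6a2, the heart and muscle isoform of subunit VIa, was at 129.2 and 158.8 in control cells and at 211 and 157.8 after knockdown (log2 difference 0.32, SE 0.27, adjusted p = 0.655), with overlap. Its second probe set, 1457633_x_at, was not above background on any array (39.8 and 45.6 against 16.7 and 24.5) and was not tested. Over the mean of its probe sets the Cox6a2 difference was -0.18. Cox7a1, the muscle isoform of subunit VIIa, was not above background on any array (47.4 and 52.2 against 45.2 and 8.1). Cox8b, the muscle isoform of subunit VIII, was below background on both control arrays (29.3 and 4.9). On the knockdown arrays it was at 116.1 and 35.7, above background on 1 of 2, and no fold is given.

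Isoforms typical of other tissues did not pass either. Cox4i2, the lung and hypoxia isoform of subunit IV, was at 133.9 and 154.6 in control cells and at 105.5 and 138 after knockdown (log2 difference -0.23, SE 0.30, adjusted p = 0.801). The testis isoform gene Cox8c was at 1001 and 1137 against 1050 and 1230 (log2 difference 0.09, SE 0.15), and a dimmer probe set of it gave -0.69 (SE 0.37). Cox6b2 was above background on both control arrays (53.8 and 108.5) and on neither knockdown array (52.1 and 10.1), and it was not tested. Its signals of replicate 1 were nearly equal in the 2 groups, and the background limits of these arrays were 49.1 and 69.3. No fold is given for Cox6b2 either. Cox7b2 was not above background on any array. Cox7b had no probe set of its own in the annotation.

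**Figure D3:**
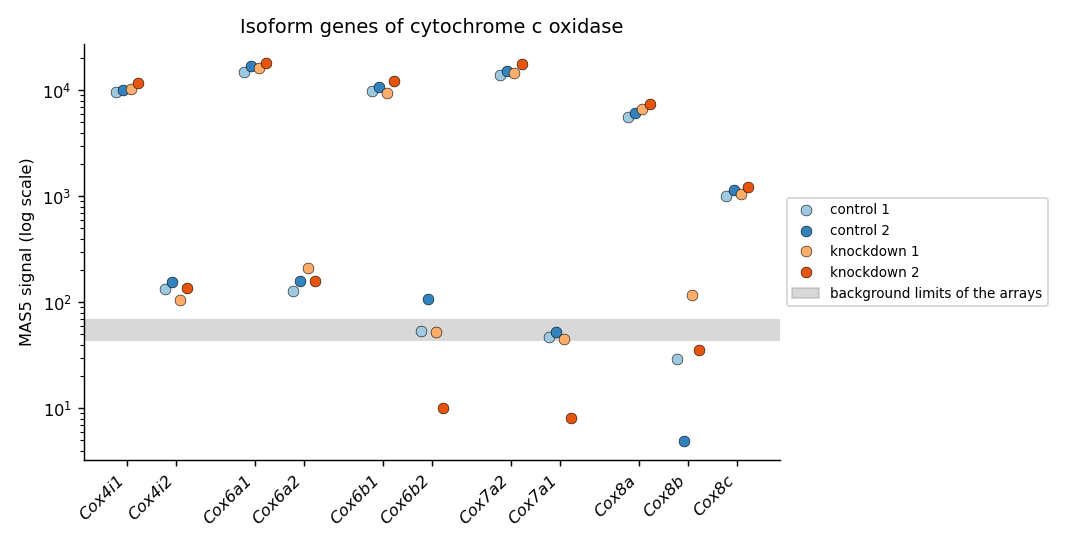
MAS5 signal on each of the 4 arrays (log axis) for isoform genes of complex IV, grouped by subunit with the common isoform first; the grey band spans the background limits of the arrays. Cox7a1 lies within or under the band on all arrays, and Cox8b lies above it on knockdown replicate 1 alone. Heights of different probe sets are not comparable as amounts of RNA.

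In complex V Atp5k was called higher and 0 of 17 genes were lower. Its product, subunit e, lies in the membrane part of ATP synthase and helps its dimers form. The signal was 4211 and 4779 in control cells and 5721 and 7398 after knockdown (1450640_x_at; log2 difference 0.53, SE 0.13, adjusted p = 0.0414), 146% of the control. Both knockdown arrays lay above both control arrays, with replicate 2 well above replicate 1. The 2 other probe sets of Atp5k gave 0.50 (SE 0.20) and 0.54 (SE 0.16), again without overlap.

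The Atp5k difference was positive under each alternative run, from 0.35 to 0.72, but the call did not hold under all of them. In a test of single probe sets, 0 of the 80 that belong to the genes of complexes II to V were called. Among all 22893 probe sets tested, 220 were called higher and 328 lower. The adjusted p of the Atp5k probe sets was 0.0755 to 0.243. With no filter on dim genes the adjusted p was 0.229, and without a variance trend it was 0.404. Without control replicate 1 the log2 difference was 0.44, and without knockdown replicate 2 it was 0.35. The call was also lost without shared probe sets, here those whose names end in _s_at or _x_at. That setting leaves out the Atp5k probe set used, 1450640_x_at, and keeps 1422525_at (log2 difference 0.50, adjusted p = 0.1998).

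ATP synthase has a catalytic head, a stalk and a membrane rotor. In the head, Atp5a1 (alpha) was at 12399 and 13241 in control cells and at 12105 and 12740 after knockdown (log2 difference -0.05, SE 0.11), and Atp5b (beta) at 18116 and 21023 against 19620 and 21445 (log2 difference 0.07, SE 0.12). The groups overlapped in both. The central stalk genes Atp5c1, Atp5d and Atp5e (gamma, delta and epsilon) differed by 0.01, 0.11 and 0.19. Of the peripheral stalk genes, Atp5o, for the oligomycin sensitivity protein, was at 6586 and 7042 against 7066 and 9033 (log2 difference 0.23, SE 0.13, adjusted p = 0.438), without overlap. Atp5h (subunit d), Atp5j (coupling factor 6) and Atp5pb (subunit b) differed by 0.19, 0.11 and 0.07.

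The rotor ring of subunit c is encoded by 3 genes whose mature products are the same. Atp5g2 was at 8496 and 9159 in control cells and at 9765 and 11467 after knockdown (log2 difference 0.26, SE 0.12, adjusted p = 0.307), without overlap. With median centring it passed (log2 difference 0.31, adjusted p = 0.0458), and over the mean of its probe sets the difference was -0.15. That mean includes 1447714_x_at (-0.73), which was above background on 1 array and not tested. It also includes the dim 1456128_at (0.02), with signals of 73.2 to 100.9. Atp5g1 was at 3788 and 4072 against 3778 and 5218 (log2 difference 0.18, SE 0.14), and Atp5g3 at 23217 and 25018 against 22803 and 24313 (log2 difference -0.03, SE 0.11). Both overlapped.

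Small membrane subunits that accompany subunit e were close to the median of the complex. Atp5l, for subunit g, its partner in the dimer, was at 4363 and 5054 in control cells and at 4707 and 5805 after knockdown (log2 difference 0.15, SE 0.13, adjusted p = 0.653). Atp5j2 (subunit f) and Atp5mpl differed by 0.15 and 0.16. Atp5md was at 2501 and 1789 against 1712 and 3219 (log2 difference 0.15, SE 0.22), high on 1 array of each group, and was called without knockdown replicate 1. The groups overlapped in all 4.

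Many of these genes had more than 1 probe set. Of 26 genes with at least 2 tested, all probe sets were positive in 14, all negative in 2 and of both signs in 10. Of the 38 tested probe sets not used for their gene, 26 were positive. In the 20 genes with at least 2 probe sets of a mean signal of 1000 or more, the values of 1 gene spread over a median of 0.07 log2 units and at most 0.28 (Sdhc). Over all tested probe sets the widest spread was 1.42, in Uqcrq, whose other probe sets are dim.

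Nuclear respiratory factors are known to drive many respiratory genes together, so the promoters were searched for their motifs and a few others. RefSeq sequence (GRCm38.p6) of the 250 bases before the start was at hand for 35 of the 46 genes. Each motif was searched on both strands with exact letters, and shares are of genes with at least 1 match. The NRF1 core CGCATGCG was found in 5 of 35 (Cox6a1, Atp5g2, Atp5j, Atp5k and Atp5l), 14.3% against 1.75% of 27025 genes. The ETS core CCGGAAG, which GABPA binds, was found in 9 of 35, 25.7% against 7.83%. The YY1 motif AAGATGGC was in 1 (Atp5j; 2.86% against 1.83%) and the ERR motif TCAAGGTCA in 1 (Atp5g3; 2.86% against 0.422%). The E-box CAGCTG, bound by myogenic factors, was in 2 (Cox8b and Atp5b), 5.71% against 14.7%. A match describes these letters only.

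Shown are Atp5k, Atp5g2 and Cox6a1, which share the NRF1 core, and the common and muscle isoform pair Cox8a and Cox8b. Capitals mark the motifs searched. Atp5k and Atp5g2 have the 2 highest differences of complex V, at 0.53 and 0.26, whereas Cox6a1 with the same core differed by 0.12 and Atp5j and Atp5l by 0.11 and 0.15. Cox8a holds none of the motifs and Cox8b an E-box alone.
Atp5k (chr5:108434400-108434649, minus strand): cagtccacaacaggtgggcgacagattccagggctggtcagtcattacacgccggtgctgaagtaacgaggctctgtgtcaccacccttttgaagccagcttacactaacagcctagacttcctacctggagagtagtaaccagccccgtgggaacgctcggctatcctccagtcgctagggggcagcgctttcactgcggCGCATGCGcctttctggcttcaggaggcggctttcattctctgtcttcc
Atp5g2 (chr15:102671048-102671297, minus strand): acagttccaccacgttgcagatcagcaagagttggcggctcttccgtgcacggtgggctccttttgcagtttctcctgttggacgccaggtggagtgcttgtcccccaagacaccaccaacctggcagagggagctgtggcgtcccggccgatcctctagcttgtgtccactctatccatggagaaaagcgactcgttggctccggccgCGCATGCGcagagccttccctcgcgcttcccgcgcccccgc
Cox6a1 (chr5:115348959-115349208, minus strand): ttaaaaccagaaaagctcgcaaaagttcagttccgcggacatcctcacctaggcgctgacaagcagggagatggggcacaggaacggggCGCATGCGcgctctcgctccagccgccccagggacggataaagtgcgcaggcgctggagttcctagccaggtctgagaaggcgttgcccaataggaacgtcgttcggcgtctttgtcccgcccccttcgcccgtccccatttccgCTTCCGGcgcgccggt
Cox8a (chr19:7217617-7217866, minus strand): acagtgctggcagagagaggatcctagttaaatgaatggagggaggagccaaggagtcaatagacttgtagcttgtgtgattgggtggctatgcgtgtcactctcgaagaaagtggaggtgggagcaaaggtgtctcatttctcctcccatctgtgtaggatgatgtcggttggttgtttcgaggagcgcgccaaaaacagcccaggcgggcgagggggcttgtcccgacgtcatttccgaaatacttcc
Cox8b (chr7:140900447-140900696, minus strand): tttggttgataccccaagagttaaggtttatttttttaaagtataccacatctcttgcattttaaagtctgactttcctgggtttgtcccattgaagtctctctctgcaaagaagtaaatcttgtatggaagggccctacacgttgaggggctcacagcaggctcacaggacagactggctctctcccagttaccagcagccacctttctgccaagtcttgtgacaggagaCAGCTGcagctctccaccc

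Assembly factors insert cofactors and join subunits without being part of the finished complex. Of 43 assembly factors of complexes II to V listed, 39 were tested, 1 rose (Coa5) and 2 fell (Cox17 and Sdhaf2), beside 1.44% and 1.61% of all genes. The median difference over the 39 was 0.08. Cox17 is the copper chaperone that supplies complex IV. Its signal was 2859 and 2956 in control cells and 1637 and 2137 after knockdown (1434435_s_at; log2 difference -0.63, SE 0.14, adjusted p = 0.0218), 64.9% of the control. The second Cox17 probe set was below background on all arrays.

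Sdhaf2 encodes the factor needed to attach the flavin to Sdha. It was at 1808 and 2078 in control cells and at 1174 and 1413 after knockdown (log2 difference -0.58, SE 0.14, adjusted p = 0.0361). A second, dimmer one of its probe sets also gave -0.58. Coa5, for a complex IV assembly factor, was at 1159 and 1512 against 1979 and 2060 (log2 difference 0.60, SE 0.15, adjusted p = 0.0342), but its second, dimmer probe set gave -0.05. In the probe sets used for these 3 genes the groups did not overlap. In the test of single probe sets Cox17 passed (adjusted p = 0.0435), and Sdhaf2 (0.0583) and Coa5 (0.0586) did not. Cox17 did not pass without control replicate 2 (log2 difference -0.61, adjusted p = 0.0556) or without knockdown replicate 1 (-0.44, 0.0776). For Sdhaf2 the values without the same arrays were -0.48 (0.224) and -0.45 (0.0878), and for Coa5 without control replicate 1 they were 0.41 (0.377). The Cox17 probe set used is shared between transcripts, and without shared probe sets Cox17 could not be tested. Over the mean of probe sets the adjusted p was 0.456 for Cox17 (log2 difference -0.36), 0.395 for Coa5 (0.28) and 0.1075 for Sdhaf2 (-0.58). With no filter on dim genes it was 0.144 to 0.160 for the 3 genes, and without a variance trend 0.335 to 0.349.

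**Figure D4:**
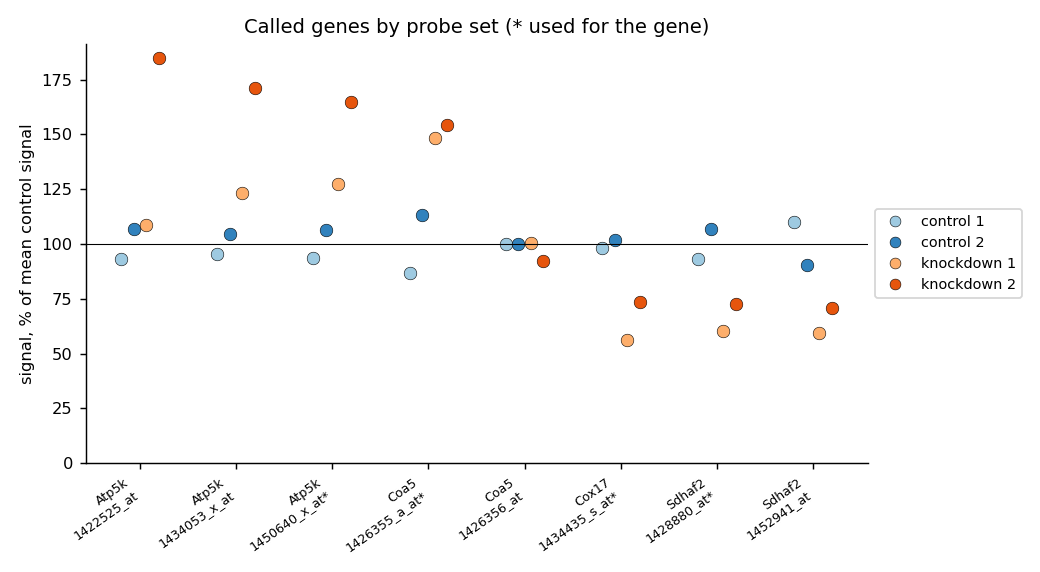
Signal on each array as a percent of the mean control signal (y axis) for Atp5k, Coa5, Cox17 and Sdhaf2, with every tested probe set of each and an asterisk on the one used. Both knockdown arrays lie above the controls in all 3 Atp5k probe sets and below them in Cox17 and both of Sdhaf2, while the Coa5 probe sets differ from each other.

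Other genes of the pathway were not called. Of 32 tested complex I subunit genes 0 passed (5 at an unadjusted p under 0.05, all higher), with a median of 0.10 and 26 positive. The nearest was Ndufa3, at 1322 and 1545 in control cells and at 1855 and 2361 after knockdown (log2 difference 0.55, adjusted p = 0.0598), followed by Ndufb7 (log2 difference 0.46, adjusted p = 0.108). Cytochrome c, encoded by Cycs, differed by 0.11, and Ndufa4, a subunit of complex IV despite its name, by -0.10. Cyc1, the complex III gene for cytochrome c1, which the choice by symbol leaves out, differed by 0.02. Of 12 citric acid cycle genes 0 passed (3 unadjusted, all higher; median 0.13), with 0.38 for fumarase (Fh1) and 0.26 for malate dehydrogenase (Mdh2). Among 7 carriers of ATP and phosphate and outer membrane channels 0 passed (0 unadjusted), with 0.20 for the translocase Slc25a5 and -0.24 for the channel gene Vdac3.

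Regulators of mitochondrial biogenesis control the supply of respiratory subunits. Of 15 tested 0 passed and 3 had an unadjusted p under 0.05, 1 higher and 2 lower, with a median of 0.004. Gabpa, whose product binds ETS motifs in respiratory gene promoters, was at 867.8 and 947.2 in control cells and at 614.4 and 693.2 after knockdown (log2 difference -0.46, SE 0.15, adjusted p = 0.134), without overlap. The coactivator gene Pprc1 was at 531.1 and 664.9 against 710.9 and 884.6 (log2 difference 0.41, SE 0.17, adjusted p = 0.267), also without overlap.

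**Figure D5:**
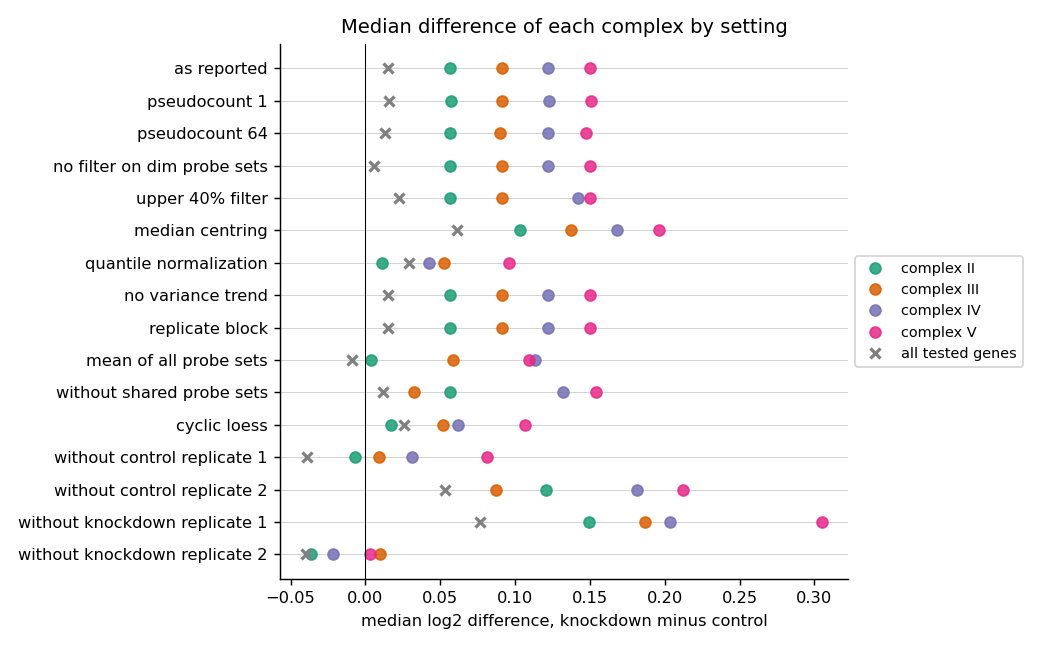
Median log2 difference (x axis) of the tested genes of each complex under each way of processing the data, with crosses for all tested genes. Without knockdown replicate 2 the 4 medians lie between -0.04 and 0.01, and that of complex V reaches 0.31 without knockdown replicate 1.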

How the data were processed

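The deposited values are linear intensity, 1 per probe set and array, which the submitters' processing notes attribute to MAS5 and GCOS without versions. No source used here says how arrays were brought to one scale, so the values were taken unchanged. Genes were named from the array annotation, where 34945 probe sets had 1 gene and 932 several; of the former, 34741 matched a RefSeq gene identifier. Signals were transformed as log2(signal + 16), so a fold understates the change of dim genes, and the filter corresponds to a signal of 57.3. Differences were tested with limma 3.58.1 (lmFit, eBayes with a variance trend) in R 4.3.3, with 2 residual and 13.8 prior degrees of freedom. A two-sided exact permutation test of 2 against 2 arrays cannot go below p = 0.333, and the number of arrays limits the precision.

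The genes and lists were chosen with earlier results of these data known. Full statistics were given for called genes, the 3 smallest p of each complex, the complex II genes and the isoform pairs, and for called genes, or else the 2 smallest p, of other lists; further genes were chosen after their values were seen. Of 161 listed symbols 152 were on the array. The steps were tested on simulated data. Cyclic loess and the test of every probe set were added after seeing the data.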

Additional observations from a re-analysis of the deposited data

How the results depend on the processing

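Over all genes, 185 were higher and 207 lower as reported, against 23 and 32 with no filter, 285 and 322 with the upper 40%, 0 and 0 without the variance trend (1501 at an unadjusted p under 0.05) and 46 and 62 over the mean of each gene's probe sets. Median centring gave 374 higher. Leaving out single arrays gave 143 to 407 higher and 128 to 450 lower. Of the genes of complexes II to V, 1 was higher as reported; the count was 0 without the filter, without the variance trend, over the mean of probe sets and without shared probe sets, 3 with median centring (Atp5g2, Atp5k and Cox8a), and 0 to 3 without single arrays. Over all alternatives the Atp5k difference ran from 0.35 to 0.72 and its adjusted p from 1.75e-04 to 0.404. Without single arrays the median difference of all tested genes of complexes II to V ran from 0.0019 to 0.247, of complex II from -0.0362 to 0.150, of complex III from 0.0090 to 0.187, of complex IV from -0.0215 to 0.203 and of complex V from 0.0028 to 0.305. The lowest values came without knockdown replicate 2, except that of complex III, without control replicate 1. With the replicate number as a block (replicate block), 1 of these genes was higher, again Atp5k (adjusted p = 0.0090). Over all genes this fit gave 276 higher and 270 lower. Deviations of same-numbered arrays correlated at 0.010 across genes. A correlation leaves out a shift common to all genes, so it cannot show whether these arrays form pairs. Replicate 2 exceeded replicate 1 in 67.2% of all tested genes in control and 69.5% in knockdown cells. The main fit did not use the numbers as pairs. Where an array was left out, the lone array of its group was assumed to vary like the others. MAS5 signals near background limit the dim isoforms.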
